A study of Homo sapiens and Mus musculus with 20 samples.

Results

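KRT8, KRT18, COL1A1, CDH5 and KDR are marker genes of epithelium, fibroblasts and endothelium, and their chromatin was examined in multiple myeloma, a cancer of plasma cells. The genes were chosen because their H3K27ac calls differed between KDM6A genotypes in the same libraries, so H3K27ac values are a description here and support nothing. Members were the listed regions that overlapped each RefSeq gene body extended by 10 kb on either side. In all, 44 distinct regions of 805893 in 16 human lists met this rule, at 5 of 19974 protein-coding genes. A region in the windows of both KRT8 and KRT18 was counted once.

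Chromatin immunoprecipitation lists came from ARP1, a human multiple myeloma line, in which the KDM6A gene was labelled knocked out (KO), JmjD-dead, with the change written H1146E in the sample titles, or wild type (WT). All 3 genotypes had libraries for H3K27ac, H3K27me3 and input DNA, KO and WT cells also had H3K4me1 and KDM6A libraries, and KDM6A was mapped in KARPAS, another myeloma line, labelled wild type for KDM6A. Anti-HA libraries came from an ARP1 line titled HA-tagged, labelled knock out by genotype, and from untagged WT cells. Nothing in the labels says how the KO or JmjD-dead alleles were made, whether each line was 1 clone, or whether HA-tagged KDM6A was added back to KO cells. Each group had 1 library, so no difference has a replicate check and no test was made. Shares carry 95% intervals (Clopper-Pearson, exact) for counting error alone.

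After the authors' filtering, the H3K27ac libraries held 25568819 (KO), 31171803 (JmjD-dead) and 30772474 (WT) fragments. The H3K4me1 libraries held 25570686 (KO) and 34023091 (WT) fragments, and those of H3K27me3 5026016 to 10449019. The KDM6A and HA libraries held 11898708 to 37389280 tags, and the inputs 222942 to 724630 fragments. All 10 plasma cell markers checked, among them SDC1, IRF4 and XBP1, held an H3K27ac region in KO, JmjD-dead and WT cells. By the same 10 kb window 76.5% (KO), 74.6% (JmjD-dead) and 74.3% (WT) of all genes did. For H3K4me1, 8 of the 10 markers were marked in KO and 10 in WT cells, where 60.1% (KO) and 78.1% (WT) of all genes were. A list of regions from a bulk culture cannot tell a mark carried by few cells from a weak mark in every cell.

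KDM6A, also called UTX, is a demethylase that removes methyl groups from lysine 27 of histone H3 (H3K27me3, a mark laid down by Polycomb complexes at silent genes), and it is also part of COMPASS-type complexes that deposit H3K4me1 at enhancers. H3K27ac marks active promoters and enhancers and cannot share a histone tail position with H3K27me3. KRT8 and KRT18 encode the type II and type I keratins that pair into the intermediate filaments of simple epithelia. COL1A1 encodes the main chain of type I collagen made by fibroblasts, CDH5 encodes VE-cadherin of endothelial junctions, and KDR encodes VEGF receptor VEGFR2.

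Promoter sequences were looked up to see whether the regions lay on them, and 2 of the 5 members, KRT8 and KDR, had an entry in the RefSeq table (GRCh38.p14, 250 bases before to 50 after the annotated start). None of the 16 lists held a region on either entry. Other starts of these genes were not looked up. Because the KRT8 entry lies inside the annotated gene, away from its ends, this says nothing of regions at other KRT8 starts. The KRT8 entry is on the minus strand at chr12:52926420-52926719, with the 1 match to CGGAAG, the core of ETS sites on either strand, in capitals. The KDR entry is on the minus strand at chr4:55125546-55125845, with both matches to GGGCGG, the box bound by SP1, in capitals. A non-member entry is shown because regions in the CDH5 window lay on it: LINC00920, a long non-coding RNA gene beyond the end of CDH5, on the plus strand at chr16:66408274-66408573, with the 169 bases that an HA region of the tagged line covered in capitals.
KRT8: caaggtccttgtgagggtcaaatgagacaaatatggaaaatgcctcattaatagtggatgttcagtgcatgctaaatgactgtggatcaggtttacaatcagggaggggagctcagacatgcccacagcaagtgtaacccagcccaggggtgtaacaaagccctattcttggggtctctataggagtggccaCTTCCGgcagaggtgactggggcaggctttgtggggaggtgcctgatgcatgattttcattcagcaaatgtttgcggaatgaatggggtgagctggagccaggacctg
KDR: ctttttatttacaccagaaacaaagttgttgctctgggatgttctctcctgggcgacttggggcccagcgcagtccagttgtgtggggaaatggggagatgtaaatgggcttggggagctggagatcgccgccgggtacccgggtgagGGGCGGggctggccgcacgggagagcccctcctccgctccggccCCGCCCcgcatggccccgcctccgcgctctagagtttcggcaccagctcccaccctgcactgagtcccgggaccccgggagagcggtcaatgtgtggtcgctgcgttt
LINC00920: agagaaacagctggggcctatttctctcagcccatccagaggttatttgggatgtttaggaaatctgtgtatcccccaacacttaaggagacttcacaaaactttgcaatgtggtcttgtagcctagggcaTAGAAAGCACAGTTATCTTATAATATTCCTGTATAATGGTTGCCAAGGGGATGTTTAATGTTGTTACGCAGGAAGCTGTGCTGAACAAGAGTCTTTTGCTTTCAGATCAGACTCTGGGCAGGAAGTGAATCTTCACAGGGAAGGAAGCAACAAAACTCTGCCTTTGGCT

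GGGCGG was found in 45.0% of all 35116 promoters of this length and CGGAAG in 19.5%, with both strands searched. TGANTCA (AP-1, in 7.71% of promoters), TATAAA (11.5%) and CCAAT (34.6%) matched none of the 3 sequences shown. The KDR promoter held 22 CG dinucleotides, the KRT8 promoter 2 and the LINC00920 promoter 1, against a median of 14 over all promoters.

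The keratin pair sits end to end on chromosome 12. In GRCh38, KRT8 extends from 52897191 to 52949860 and KRT18 from 52948855 to 52952906, so the gene bodies share 1006 bp and their extended windows 21006 bp. KRT8 runs on the minus strand and, as background, KRT18 on the plus strand, so the shared stretch holds the outermost 5′ coordinates of both genes. The KRT8 promoter entry shown above lies well inside the gene, away from that stretch. One H3K27ac region lay in that stretch in each mutant, and by position it overlapped both gene bodies. In KO cells it spanned 52948865 to 52949745 (881 bp) with a summit pileup of 14 fragments and −log10 q of 8.46. In JmjD-dead cells it spanned 52949167 to 52949451 (285 bp), with a pileup of 9 fragments and −log10 q of 3.47, and lay wholly inside the KO region. WT cells had no region in the KRT18 window. KRT8 and KRT18 therefore count as 1 gained region in each mutant, not 2, when regions are assigned by gene ends.

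The ranks of these regions are bands rather than single places, because pileups are whole fragments and many regions share a −log10 q. The KO region was among 2044 tied regions in places 30094 to 32137 of 76242, and the JmjD-dead region among 7055 in places 59935 to 66989 of 74063. On a scale where 0% is the top of a list and 100% its end, the band centres were at 40.8% (KO) and 85.7% (JmjD-dead). The lowest pileup of any listed H3K27ac region was 6 (KO), 7 (JmjD-dead) and 7 (WT), so the JmjD-dead region stood 2 fragments above the lowest in its list.

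The strongest gain at the keratins lay elsewhere, inside KRT8, about 10 kb from its lower coordinate. KO cells held an H3K27ac region at 52907001 to 52908413 (1413 bp) with a pileup of 24 fragments, 10.39-fold over background and −log10 q of 19.87, in places 20069 to 20630 of 76242. Neither JmjD-dead nor WT cells held a region overlapping it. A weaker KO region followed at 52908614 to 52908933, with a pileup of 9 and −log10 q of 3.77. Of all KO regions with −log10 q from 10 to under 20, 9.14% (756 of 8274) had no overlapping WT region.

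KRT8 was already marked in WT cells, by a region that all 3 genotypes held and whose length and height differed among them. This region spanned 52902844 to 52904001 in KO, 52903297 to 52903854 in JmjD-dead and 52903119 to 52903869 in WT cells. Its −log10 q was 27.62 in KO, 13.19 in JmjD-dead and 21.67 in WT cells, and its pileup 30, 19 and 27 fragments in the same order. The band centres were at 22.8% of the KO list, 39.0% of the JmjD-dead list and 30.9% of the WT list. A WT region of 281 bp at 52904255 to 52904535, with a pileup of 8 and −log10 q of 2.41, had no overlapping region in either mutant, and its gap to the shared region measured 253 bp (KO) or 400 bp (JmjD-dead). H3K27ac regions covered 3772 bp of the KRT8 window in KO, 843 bp in JmjD-dead and 1032 bp in WT cells, where the whole lists covered 73.6, 69.9 and 71.0 Mb.

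**Figure D1:**
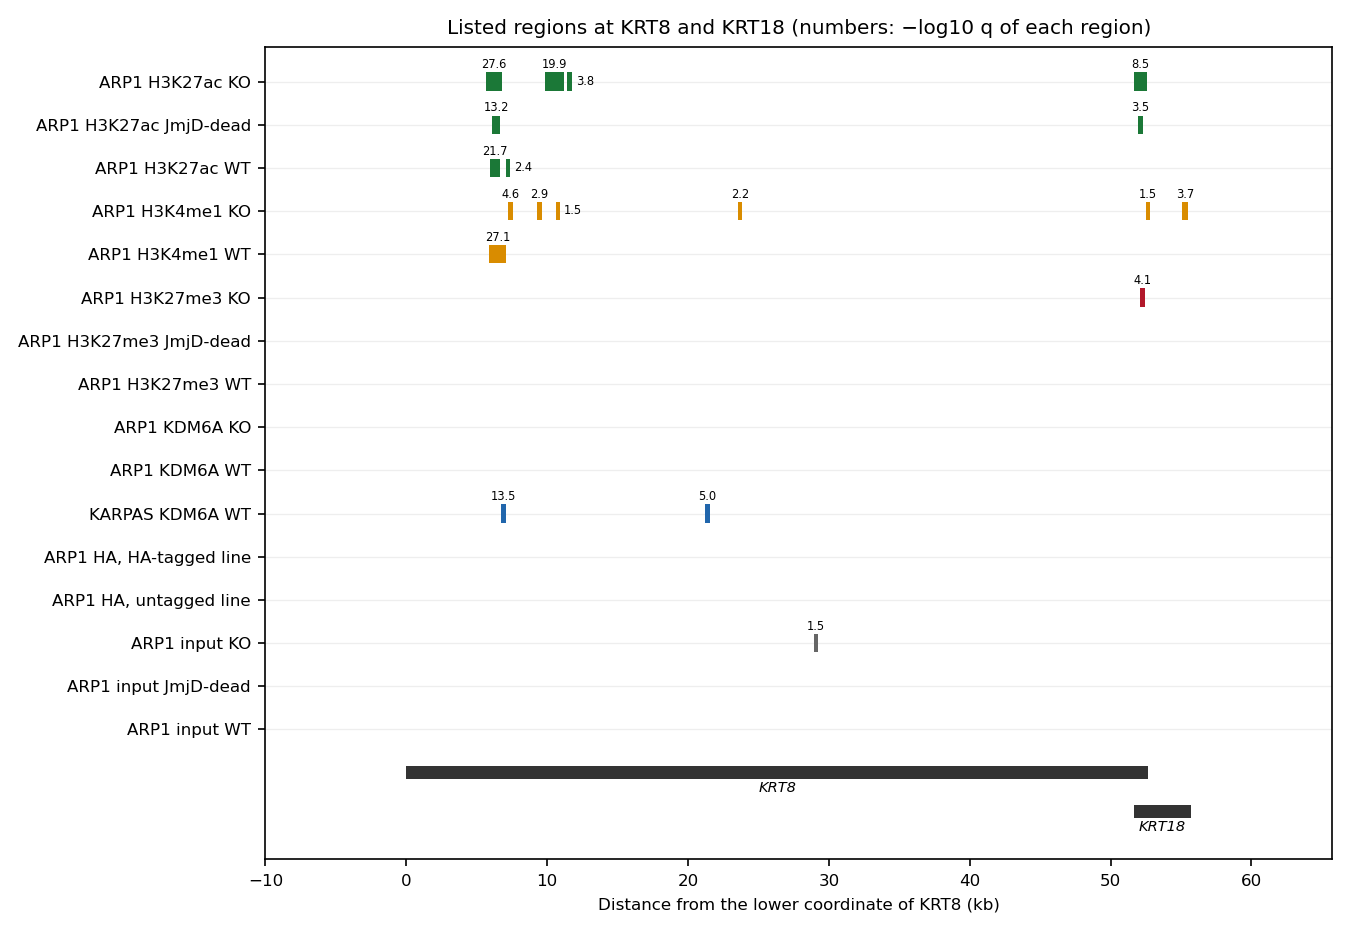
Regions listed at KRT8 and KRT18 in each of the 16 human libraries, by distance in kb from the lower coordinate of KRT8; bars are regions (the narrowest drawn slightly wider to be visible), numbers are −log10 q and dark bars the genes. Over the shared end of both genes, regions appear in KO (8.5) and JmjD-dead (3.5) H3K27ac, in KO H3K27me3 (4.1) and in KO H3K4me1 (1.5), and not in WT.

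COL1A1, on chromosome 17 at 50184101 to 50201631, lost its only H3K27ac region in both mutants. In KO and JmjD-dead cells 0 regions were listed in the window. In WT cells a region of 162 bp at 50200707 to 50200868 had a pileup of 10 fragments, 4.10-fold over background, −log10 q of 3.94 and a place between 49576 and 55658 of 69127. It lay 763 bp inside the higher coordinate, which is the 5′ end, as COL1A1 is transcribed from the minus strand.

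At CDH5, on chromosome 16 at 66366691 to 66404784, every H3K27ac region lay beyond the higher coordinate, the 3′ end of this plus-strand gene, and none on the gene. The stronger region was at the start of LINC00920, 3740 bp past CDH5. It spanned 66408176 to 66408975 in KO, 66408547 to 66408952 in JmjD-dead and 66408550 to 66408975 in WT cells. Its −log10 q was 28.96 in KO, 3.47 in JmjD-dead and 9.40 in WT cells, and its pileup 31, 9 and 16 fragments, at 22.3%, 85.7% and 46.1% of the lists in that order. It thus ranked highest in KO cells and lowest in JmjD-dead cells. On the LINC00920 promoter shown above it covered all 300 bases in KO, 27 in JmjD-dead and 24 in WT cells.

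The second CDH5 region lay nearer the gene and accounts for its loss call in JmjD-dead cells. KO cells held it at 66406678 to 66407029 with a pileup of 14 and −log10 q of 8.46, JmjD-dead cells did not hold it, and WT cells held it at 66406827 to 66407046 with a pileup of 10 and −log10 q of 3.94. It was 1894 bp past the gene in KO and 2043 bp in WT cells. Since the LINC00920 region was kept, CDH5 was marked in all 3 genotypes by the 10 kb window and lost in JmjD-dead cells by gene ends of 2.5 kb.

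KDR, on chromosome 4 at 55078481 to 55125595, carried a weak region outside the gene in KO and in WT cells. KO cells held 1 region at 55075850 to 55076014, with a pileup of 7 and −log10 q of 2.19, JmjD-dead cells held none, and WT cells held 1 at 55076383 to 55076561, with a pileup of 8 and −log10 q of 2.41. The KO and WT regions did not overlap, with 368 bp between them, and lay 2467 bp (KO) and 1920 bp (WT) below the lower coordinate, the 3′ end of this minus-strand gene. Their band centres were at 90.7% of the KO list and 93.8% of the WT list. KDR was marked in both by the gene rule although no base was shared.

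**Figure D2:**
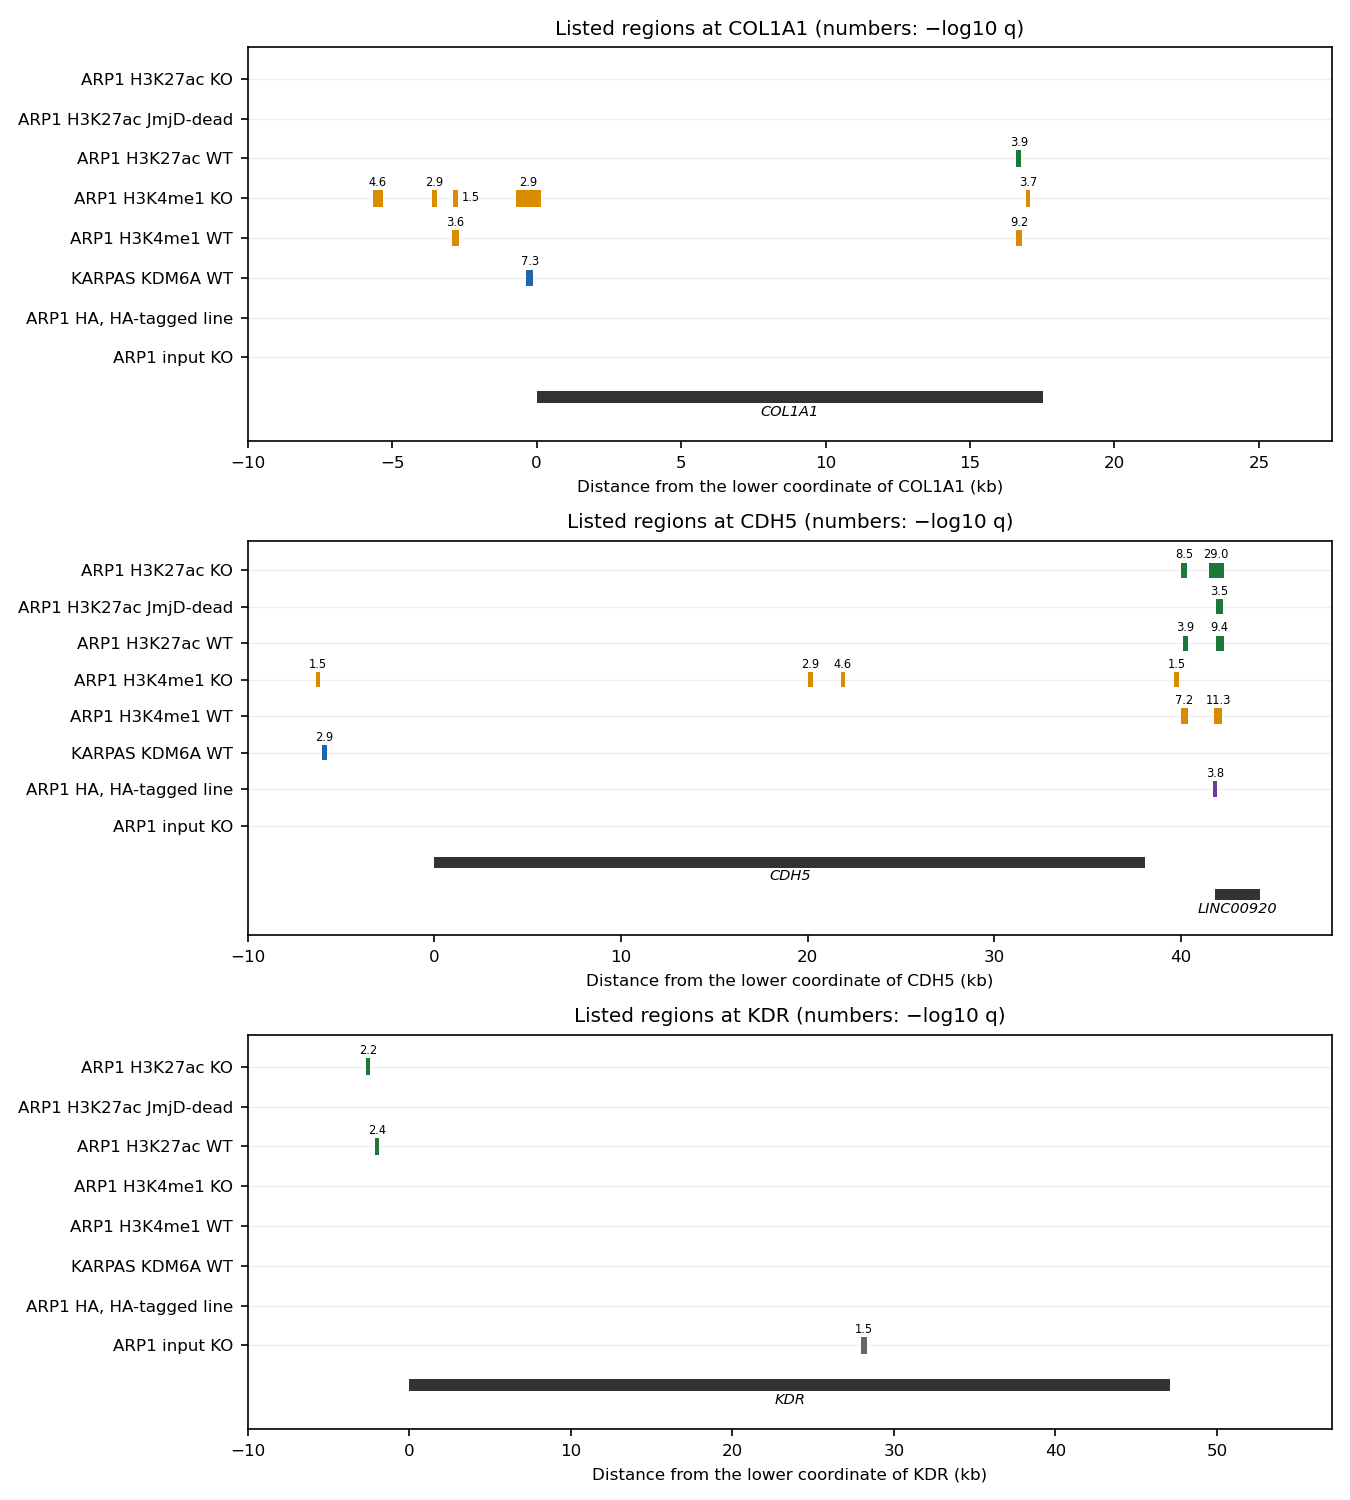
Regions listed at COL1A1, CDH5 and KDR, by distance in kb from the lower coordinate of each gene, drawn as for the keratins for the H3K27ac lists and every other list with a region at 1 of the 3 genes. H3K27ac at CDH5 lies over the start of LINC00920, past the end of CDH5, with −log10 q of 29.0 in KO, 3.5 in JmjD-dead and 9.4 in WT cells.

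A region was called gained where a mutant list had it and no WT region overlapped it, and lost where a WT region had no overlapping region in the mutant. Counted over the 5 genes, 4 of 7 KO regions (57.1%, 18.4 to 90.1) had no overlapping WT region, and 35.2% of all KO regions had none. Of the 6 WT regions 3 (interval 11.8 to 88.2%) had no KO region, against 30.1% of all WT regions. Between JmjD-dead and WT cells, 1 of 3 JmjD-dead regions (33.3%, 0.84 to 90.6) had no WT region, against 29.1% of the list, and 4 of 6 WT regions (66.7%, 22.3 to 95.7) had no JmjD-dead region, against 27.7%. All 4 intervals include the share of the whole list. With regions within 500 bp counted as shared, 3 of 7 KO regions were gained (background 26.6%) and 1 of 6 WT regions was lost in KO (background 21.7%), and the counts in JmjD-dead cells were 1 of 3 gained and 3 of 6 lost (background 20.0% and 19.4%, in that order). The members were chosen from this contrast, so nothing is read from these shares.

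By gene, with the 10 kb window, KRT18 was the 1 member unmarked in WT and gained a region in both mutants, where 14.3% of unmarked genes did so in KO and 8.28% in JmjD-dead cells. COL1A1 was lost in KO, 1 of 4 marked members, where 1.98% of marked genes were lost. COL1A1 and KDR were lost in JmjD-dead cells, 2 of 4, where 2.45% of marked genes were. With gene ends of 2.5 kb, KRT8 and KRT18 were gained in both mutants (background 8.54% in KO and 4.58% in JmjD-dead cells). Both gains came from the same 1 region in each mutant. KRT8 was unmarked in WT by this rule only because its WT regions lay farther than 2.5 kb from either gene end. By the same rule COL1A1 was lost in KO (background 1.93%) and CDH5, COL1A1 and KDR were lost in JmjD-dead cells (background 2.75%). The KDR region of KO cells, 2467 bp from the gene, lay just inside that distance.

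Regions as weak as these were often listed in 1 genotype and not the other. Of all WT H3K27ac regions with −log10 q under 5, 59.2% had no KO region and 58.8% no JmjD-dead region, against 1.40% and 0.517% of WT regions with −log10 q of 20 or more. Of the 6 WT regions at the members 4 were under 5, and these included all 3 lost in KO and all 4 lost in JmjD-dead cells. Among all KO regions from 5 to under 10, the band of the KO region shared by KRT8 and KRT18, 28.9% had no overlapping WT region. Among all JmjD-dead regions under 5, the band of the JmjD-dead region there, 61.5% had none.

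**Figure D3:**
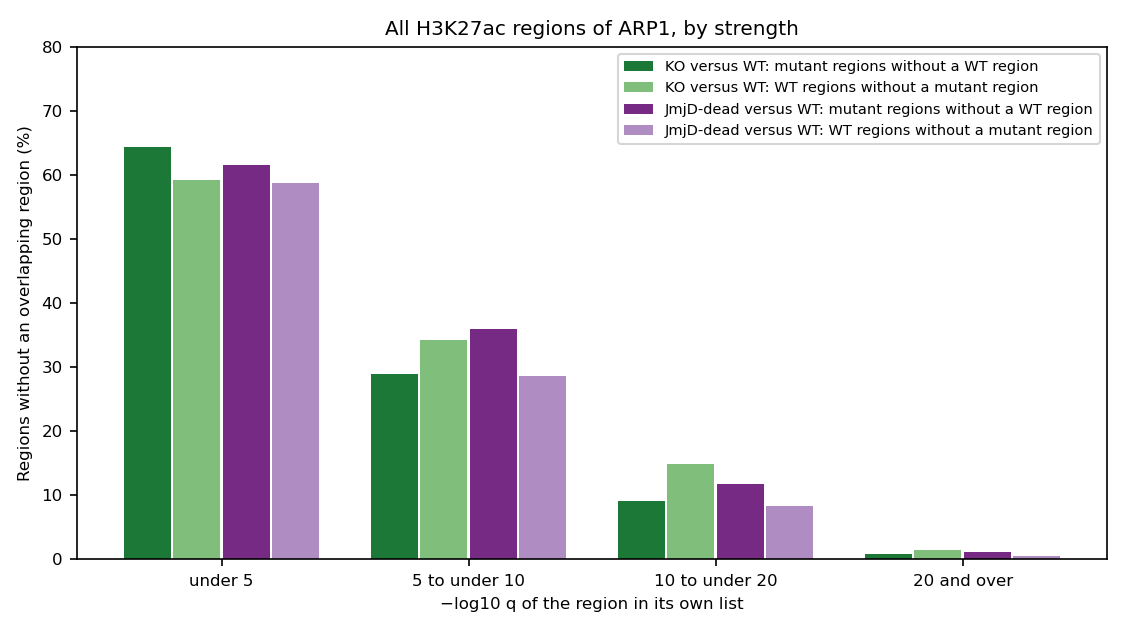
Share of all H3K27ac regions of ARP1 without an overlapping region in the other genotype, by −log10 q in the region's own list. The share falls from 58.8% to 64.4% of regions under 5 to under 2% of regions at 20 or more.

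H3K4me1 was not used to choose the genes. Of the 5 WT H3K4me1 regions 4 overlapped a WT H3K27ac region, the exception being one 2682 bp below COL1A1 (−log10 q of 3.59). Nothing is read from this overlap, because the genes were chosen by H3K27ac calls and the share over all WT H3K4me1 regions was not computed. At KRT8 the WT region spanned 52903053 to 52904295 with 4 summits, a pileup of 30 fragments and −log10 q of 27.06, at COL1A1 the region at 50200707 to 50200885 had −log10 q of 9.21, and at CDH5 the regions had −log10 q of 7.20 and, at LINC00920, 11.32. KDR had none in either genotype. In KO cells the 15 regions of the 5 windows were all weak, with pileups of 6 to 10 and −log10 q of 1.51 to 4.61. The whole KO list was weak too, with a median −log10 q of 2.93, the same as the median of the 15, against 4.44 for the WT list. Values of the 2 lists are therefore not compared directly. A KO region of −log10 q 1.51 overlapped the H3K27ac region gained inside KRT8 by 142 bp, and another overlapped the one shared by KRT8 and KRT18 by 10 bp.

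Few KO and WT H3K4me1 regions overlapped at the members. Of 15 KO regions 14 (93.3%, 68.1 to 99.8) had no overlapping WT region, against 69.2% of the KO list, and 4 of 5 WT regions (interval 28.4 to 99.5%) had no KO region, against 75.3% of the WT list. Counting regions within 500 bp as shared left 11 of 15 KO regions (background 60.5%) and 1 of 5 WT regions (background 67.7%). The WT region left without a KO neighbour was the one at LINC00920. By gene, 0 of the 3 members marked in WT were lost (background 31.5%) and KRT18, 1 of 2 unmarked, was gained (background 29.8%). KO regions were dense around 4 of the 5 genes. The 1 Mb centred on KRT8 held 122 in KO and 59 in WT, that on COL1A1 206 and 52, that on CDH5 42 and 30 and that on KDR 1 and 9, in the same order, where the median occupied 1 Mb bin held 9 in KO and 22 in WT. The part of this density in the H3K4me1 gains was not tested.

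H3K27me3 was listed once at the 5 genes. KO cells held a region of 342 bp at 52949257 to 52949598, with a pileup of 7 fragments and −log10 q of 4.14, inside the H3K27ac region of KO cells over the shared end of KRT8 and KRT18, while JmjD-dead and WT cells held 0 regions in any window. By gene this gave 2 gains of 5 from 1 region, where 11.3% of unmarked genes gained H3K27me3 in KO, and 63.1% of all KO H3K27me3 regions had no WT region. In JmjD-dead cells 44.7% of all genes held an H3K27me3 region in the same window, and in WT cells 31.2%.

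KDM6A itself was not listed at any member in ARP1, in KO or WT cells, where 14.0% (KO) and 36.8% (WT) of all genes held a region. With the HA antibody, the tagged line held 1 region, at 66408405 to 66408619 on the LINC00920 promoter, with a pileup of 11 tags and −log10 q of 3.75, and the untagged line held 0. That was 1 of 5 members unmarked in the untagged line, where 32.4% of such genes gained a region and 51.8% of all regions of the tagged line had no region in the untagged line. The HA region overlapped the LINC00920 H3K27ac region by 215 bp in KO, 73 bp in JmjD-dead and 70 bp in WT cells.

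KARPAS cells, for which no KO library was used here, held 4 KDM6A regions at the members. The strongest was in KRT8 at 52903902 to 52904271, with a pileup of 25 tags and −log10 q of 13.52, and lay inside the WT H3K4me1 region of ARP1. Others had −log10 q of 4.98 (KRT8), 7.30 (110 bp below COL1A1) and 2.91 (5771 bp below CDH5), and KRT18 and KDR held none. In KARPAS 54.9% of all genes held a region.

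**Figure D4:**
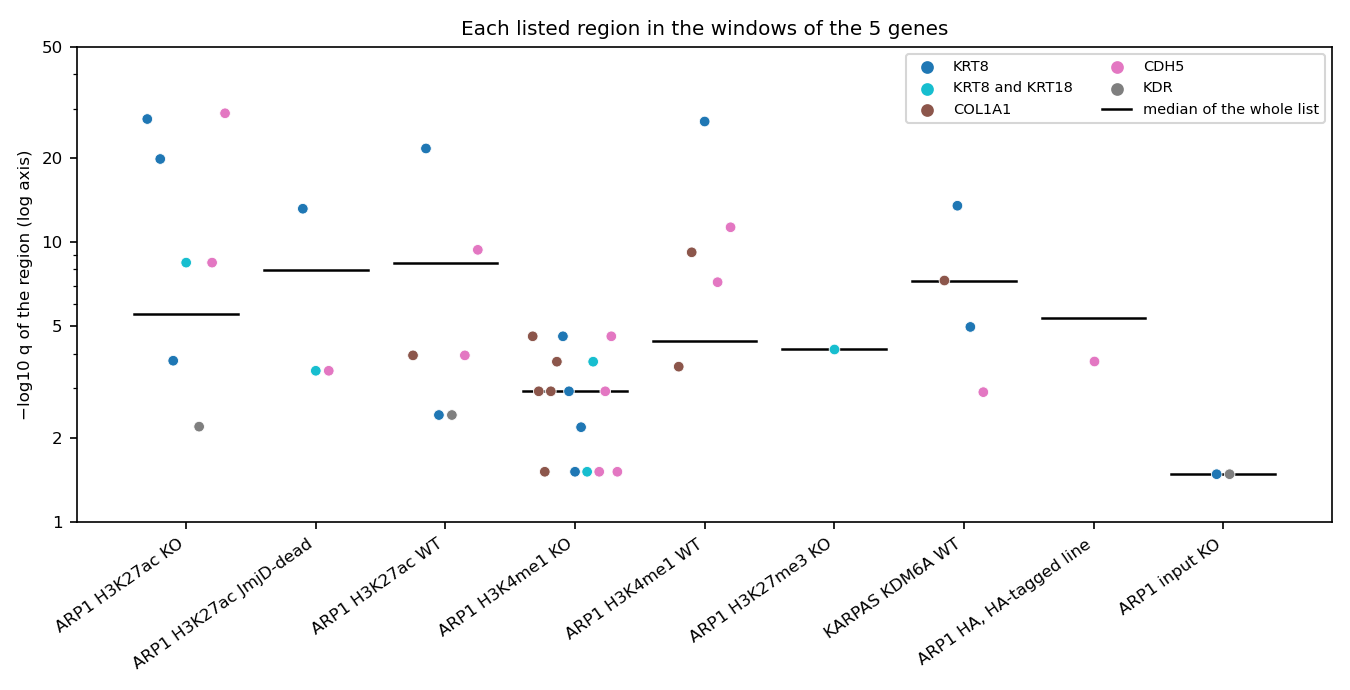
Each dot is 1 region in the windows of the 5 genes, by library, with its −log10 q on a log axis; black lines are medians of the whole lists. Values of 20 or more occur at KRT8 in KO H3K27ac, WT H3K27ac and WT H3K4me1 and at CDH5 in KO H3K27ac, and KDR dots stay under 2.5.

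Input DNA held 2 regions in KO, in KRT8 and in KDR, each with a pileup of 2 fragments and −log10 q of 1.48, and 0 in JmjD-dead and WT input. Neither overlapped a region of an antibody list. Among H3K27ac regions inside the windows, the farthest from its gene was the WT region 3766 bp past CDH5, and the nearest one outside was a WT region 11995 bp below COL1A1, with −log10 q of 2.41.

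Other genes of the same cell types came from lists chosen with earlier results of these data known, counted by the 10 kb window and without a test. Of 15 epithelial markers 10 were marked in KO, 12 in JmjD-dead and 8 in WT cells, against 76.5%, 74.6% and 74.3% of all genes. KRT7, a keratin of simple epithelia, was gained in KO (−log10 q of 10.56) and in JmjD-dead cells (4.29), and so was KRT14, a basal keratin (4.63 and 4.29). EPCAM, an epithelial adhesion molecule (6.06), and ESRP1, an epithelial splicing factor (4.29), were gained in JmjD-dead and not in KO cells. None of the 8 marked genes was lost in either, against 1.98% (KO) and 2.45% (JmjD-dead) of all marked genes. Gains thus took 2 (KO) and 4 (JmjD-dead) of 7 unmarked genes, with background shares of 14.3% and 8.28% as above. For H3K4me1, 8 genes of this list were marked in KO and 11 in WT cells, with 0 of 4 unmarked genes gained and 3 of 11 marked genes lost in KO (background 29.8% and 31.5%).

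Among 15 other fibroblast markers 7 were marked for H3K27ac in KO, 4 in JmjD-dead and 6 in WT cells, where 76.5% (KO), 74.6% (JmjD-dead) and 74.3% (WT) of all genes were marked. SPARC, a matrix glycoprotein, was gained in KO (−log10 q of 2.19), 1 of 9 unmarked genes against 14.3% of all. In KO 0 of 6 marked genes were lost, against 1.98% of all. In JmjD-dead cells 0 of 9 were gained, against 8.28% of all unmarked genes, and 2 of 6 were lost, where 2.45% of all marked genes were. These were COL5A1, a chain of type V collagen (3.94 in WT), and FN1, fibronectin (2.41 in WT).

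Of 16 other endothelial markers 9, 8 and 9 were marked in KO, JmjD-dead and WT cells, against 76.5%, 74.6% and 74.3% of all genes. FLT1, VEGF receptor VEGFR1, was lost in both mutants (5.63 in WT), 1 of 9 marked genes, where 1.98% of all marked genes were lost in KO and 2.45% in JmjD-dead cells. VWF, the von Willebrand factor, was gained in KO (5.54), 1 of 7 unmarked genes against 14.3% of all. In JmjD-dead cells 0 of 7 were gained, against 8.28% of all. For H3K4me1 in KO, 0 of 6 unmarked fibroblast markers were gained and 2 of 9 marked ones lost, and 3 of 5 endothelial markers were gained and 2 of 11 lost, where 29.8% of all unmarked genes were gained and 31.5% of marked genes lost.

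Genes whose 13 antibody lists looked most like those of each member were found by the mean absolute difference in list place of the best region, with unlisted counted as 100. For KRT8 these were SYNDIG1L, C1QTNF8 and DOCK6, at 1.69, 3.42 and 3.69 percentage points, where the median gene was at 29.09. For KRT18 they were COL22A1 (5.05), BARX1 and RRAS2 (5.21 each), for COL1A1 CCL14 and CCL16 (2.66 each) and ANGPT4 (3.17), and for CDH5 VSIG10L2 (5.26) and CGB2 (5.70). KDR was like LOC124903407, OR51B2 and RAPSN (0.47 each, shared by 4 genes), with 11 of 13 lists empty at both genes. The lists share libraries and calling, so this is a description.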

How the data were processed

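Lists of enriched regions from 16 human libraries were used, 1 per group, and 4 mouse libraries were not analysed here. The submitters' processing notes name Trimmomatic, FastQC, MultiQC, Bowtie2, MACS2 2.1.2 and the GRCh38 build. MACS 2.2.7.1 (input, H3K27ac, H3K27me3) or 2.1.1.20160309 (others) called regions per library at a q-value of 0.05, per the file headers, with no control and no local background, so neither input nor copy number was corrected for, and single-end HA and KDM6A tags were extended to 200 bp. Each deposited row holds the authors' pileup signal, fold over the library mean (a ratio), and −log10 q, used here only to describe and rank regions within a list.

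Rows sharing coordinates were merged, keeping the best summit, and chromosomes 1 to 22 and X kept. Ranks followed −log10 q. Overlap meant 1 bp. Genes were RefSeq GRCh38.p14; its table gives no exons, so exons and introns were not assigned. The members and gene lists were chosen with earlier results of these data known. Named genes were the 5 members, up to 4 gained and 4 lost per list and mutant, and the 3 genes most like each member, of which 1 is not reported here. Tools were scipy 1.17.1, pandas 2.3.3, numpy 2.4.6, matplotlib 3.10.9 and Python 3.11.15. In 6 of 6 check steps, on simulated or hand-written lists, the code returned the known answer.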

Additional observations from a re-analysis of the deposited data

How the results depend on the processing

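Of 44 shares of member regions recomputed under other settings, 36 stayed inside the 95% interval of the reported share. The intervals were wide, such as 18.4 to 90.1% for the share gained in KO H3K27ac, so staying inside them says little. The gained shares of H3K27me3 in KO and of HA rested on 1 region each and were 100.0% under every setting computed. With −log10 q of at least 5, the share lost in KO H3K27ac was 0.0% (0 of 2 regions), that gained in JmjD-dead H3K27ac 0.0% (0 of 1) and that lost in KO H3K4me1 100.0% (4 of 4). The H3K4me1 share was fixed by this cutoff, because all 15 KO regions at the members were under 5. With gene ends of 2.5 kb, 100.0% were gained (1 of 1) and lost (3 of 3) in JmjD-dead H3K27ac and gained (5 of 5) and lost (2 of 2) in KO H3K4me1. Counting regions within 500 bp as shared, chosen after seeing the data, gave 20.0% lost in KO H3K4me1 and 16.7% (1 of 6 regions) lost in KO H3K27ac. Equal list lengths, 50% overlap and removal of regions on input moved no share out of its interval, and equal lengths made KDR lost in KO. With −log10 q of at least 5, COL1A1 and KDR were unmarked in all 3 genotypes, CDH5 was lost in JmjD-dead cells and KRT18 was gained in KO and not in JmjD-dead cells. The KDM6A contrast of ARP1, H3K27me3 in JmjD-dead cells and the lost shares of H3K27me3 and HA had no member region. No paired analysis was possible because each group had 1 library. With 1 to 15 regions per share, only large differences could be seen.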

Other observations

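Type II keratin genes other than KRT8 lie together on chromosome 12 from 52168996 to 52848994 (680.0 kb), just below KRT8. Of these 25 genes, 4 held H3K27ac in KO, 4 in JmjD-dead and 3 in WT cells, and KRT7 was the 1 gene gained of 22 unmarked in each mutant, where 14.3% of all unmarked genes were gained in KO and 8.28% in JmjD-dead cells. H3K4me1 differed more, with 19 genes marked in KO and 5 in WT, 15 gained of 20 unmarked and 1 lost of 5 marked, where 29.8% of all unmarked genes were gained and 31.5% of all marked genes lost. The stretch held 53 H3K4me1 regions in KO and 14 in WT cells, and 10 (KO), 7 (JmjD-dead) and 4 (WT) H3K27ac regions. Neighbouring genes share regions, and the part of the crowding of H3K4me1 regions in the KO library was not tested.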
